A study of Sus scrofa with 599 samples.

Results

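The 500 bins described here are the 20-kb stretches of the pig genome whose A-B index shifted furthest toward the inactive side between pigs on a normal diet and pigs that had lost weight. They were chosen by the index itself. In each adipose tissue (AT) the mean of the normal condition (NC) libraries was subtracted from the mean of the weight-loss (WL) libraries after quantile normalization between libraries, the 4 differences were averaged, and the 500 lowest of 113298 bins on the 18 autosomes were kept. Every WL-minus-NC index value given below is therefore a description and carries no test. The index came from in situ Hi-C, which records contacts between pieces of chromatin. Matched RNA-seq, TAD (topologically associating domain) calls from the same Hi-C libraries and pooled H3K27ac enhancer tables gave readouts that the choice did not use.

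The animals were female Bama pigs, an indigenous Chinese miniature breed, aged 2 years when the feeding began. NC pigs stayed on a normal diet, weight-gain (WG) pigs were fed high-fat feed over 22 weeks, and WL pigs had the same 22 weeks and then 10% of the normal intake for 12 weeks, so that no group had lost weight without first gaining it. The tissues were GOM (the greater omentum), MAD (around the mesentery) and RAD (behind the peritoneum), which are visceral, and ULB (the upper layer of backfat), which is subcutaneous. The 240 Hi-C libraries used here comprised 9, 12, 12 and 5 from NC, 46, 37, 40 and 39 from WG and 10 each from WL, in the order GOM, MAD, RAD and ULB. The 236 RNA-seq libraries had the same numbers except for 1 fewer WG library in each AT. The labels did not say which pig each library came from, so p-values measure the spread between these samples.

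In interphase nuclei chromatin segregates into an A compartment, which is gene-rich and open, and a B compartment, which is gene-poor, compact and largely silent. An A-B index above 0 places a bin on the A side and one below 0 on the B side, and a fall in the index means that the contacts of a bin moved toward those of B. Adipose tissue is a mixture of lipid-laden adipocytes with macrophages, lymphocytes, endothelial cells and progenitors, so its RNA levels are averages over cell types. For Hi-C the authors spun the fixed tissue and used the layer that held the adipocytes. The index is thus an average over the cells of that layer. The index and the RNA need not describe the same mixture of cells.

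The sequences below show what the choice captured. The first pair are the central 300 bases of the lowest bin and of the lowest bin outside chromosome 10, neither of which overlaps a coding gene, and the other 4 are the promoters (250 bases before to 50 after the RefSeq start) of the member genes whose RNA was called different between WL and NC in 3 or more ATs. All are from Sscrofa11.1, written 5′ to 3′ on the strand given, with CG dinucleotides in capitals. The centre of the lowest bin was chr10:25069851-25070150 (+ strand) and held 2 CG, and that of the lowest bin elsewhere was chr14:106269851-106270150 (+ strand) and held 0. The promoters were chr14:71485675-71485974 (+ strand) for HNRNPH3 with 15 CG, chr1:75458091-75458390 (- strand) for CD164 with 26, chr10:49242815-49243114 (- strand) for APBB1IP with 16, and chr17:59967094-59967393 (- strand) for PPP1R3D with 50.
Lowest bin, centre: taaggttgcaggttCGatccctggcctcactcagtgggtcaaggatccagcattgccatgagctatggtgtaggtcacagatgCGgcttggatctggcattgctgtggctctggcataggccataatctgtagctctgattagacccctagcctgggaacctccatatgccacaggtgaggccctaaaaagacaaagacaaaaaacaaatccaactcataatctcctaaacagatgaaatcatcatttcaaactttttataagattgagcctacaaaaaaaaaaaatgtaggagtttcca
Lowest bin outside chromosome 10, centre: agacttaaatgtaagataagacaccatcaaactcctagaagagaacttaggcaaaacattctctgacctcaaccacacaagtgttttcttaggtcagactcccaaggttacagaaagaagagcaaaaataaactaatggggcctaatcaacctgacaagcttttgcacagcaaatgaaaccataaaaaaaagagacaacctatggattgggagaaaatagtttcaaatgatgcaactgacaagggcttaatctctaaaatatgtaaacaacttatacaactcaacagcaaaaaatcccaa
HNRNPH3: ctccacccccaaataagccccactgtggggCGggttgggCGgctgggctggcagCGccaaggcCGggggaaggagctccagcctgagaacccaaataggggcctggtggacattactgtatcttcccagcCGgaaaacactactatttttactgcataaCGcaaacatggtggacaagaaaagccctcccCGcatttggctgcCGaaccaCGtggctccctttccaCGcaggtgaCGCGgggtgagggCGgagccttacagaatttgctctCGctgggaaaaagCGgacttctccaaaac
CD164: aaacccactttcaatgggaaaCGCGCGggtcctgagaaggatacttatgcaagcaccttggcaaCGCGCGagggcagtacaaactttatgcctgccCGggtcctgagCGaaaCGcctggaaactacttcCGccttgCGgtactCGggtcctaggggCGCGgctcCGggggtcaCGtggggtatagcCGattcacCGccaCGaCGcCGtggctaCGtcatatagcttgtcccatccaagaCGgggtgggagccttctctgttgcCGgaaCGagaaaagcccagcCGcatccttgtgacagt
APBB1IP: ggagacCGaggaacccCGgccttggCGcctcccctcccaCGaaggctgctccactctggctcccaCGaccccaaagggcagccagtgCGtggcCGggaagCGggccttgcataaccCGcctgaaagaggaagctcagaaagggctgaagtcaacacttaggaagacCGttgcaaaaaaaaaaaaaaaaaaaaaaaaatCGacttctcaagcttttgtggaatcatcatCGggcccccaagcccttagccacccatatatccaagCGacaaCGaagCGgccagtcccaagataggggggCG
PPP1R3D: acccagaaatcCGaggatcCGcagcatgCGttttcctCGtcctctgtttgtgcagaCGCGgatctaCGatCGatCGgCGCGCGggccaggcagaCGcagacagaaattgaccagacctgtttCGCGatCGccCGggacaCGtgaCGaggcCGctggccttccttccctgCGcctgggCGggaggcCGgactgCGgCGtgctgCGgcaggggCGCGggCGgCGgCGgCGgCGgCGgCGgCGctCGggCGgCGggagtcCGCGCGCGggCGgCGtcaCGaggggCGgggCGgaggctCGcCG

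Chromosome 10 stood apart and has to be described before any result. It held 282 of the 500 bins (56.4%) although it makes up 3.06% of all bins. This number depended on the normalization and the averaging, since chromosome 10 held 208 of the 500 lowest bins with the index as deposited and 121 with the median over the ATs. The other 17 autosomes held 218, between 1 and 41 each. On the other autosomes the lowest correlation of a library with the median profile was 0.853, whereas on chromosome 10 it was below 0.8 in 74 of 240 libraries (7 of 38 NC, 53 of 162 WG and 14 of 40 WL) and below 0 in 12, all from WG. GC content, which is higher in A chromatin, correlated with the index across bins at 0.377 to 0.751 on the other autosomes in every library. On chromosome 10 the correlation ranged from -0.167 to 0.537 with a median of 0.00369, and it was below 0.2 in 145 libraries. The mean index of the chromosome 10 members ran from -4.95 to 4.20 over libraries and was above 0 in 27 of 38 NC, 88 of 162 WG and 19 of 40 WL libraries, so a group mean of chromosome 10 averages over libraries on both sides. What sets the side of a library on chromosome 10 was not tested. Most results are therefore given also for the 218 members on the other autosomes.

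**Figure D1:**
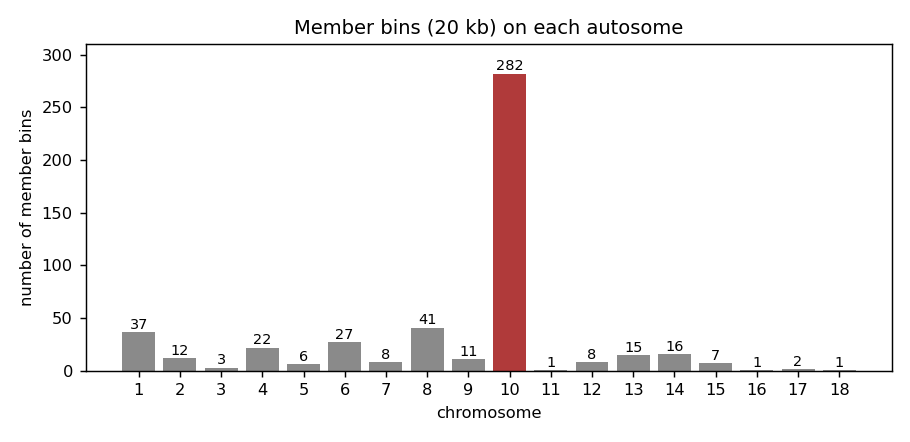
Number of the 500 member bins (y axis) on each of the 18 autosomes (x axis), with the count above each bar and chromosome 10 in red. Chromosome 10 holds 282 and no other autosome holds more than 41.

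The members on chromosome 10 formed long blocks, whereas those elsewhere were scattered. Of the 282, 199 lay in a stretch of 4.12 Mb (chr10:34080001-38200000, 206 bins) with 35.96% GC, in which the only coding genes that start are LINGO2, which encodes a neuronal leucine-rich repeat membrane protein, and LOC110255599. The longest run of adjacent members was 92 bins (chr10:35640001-37480000, 1840 kb) and covers the start of LINGO2, and the next was 62 bins (chr10:34180001-35420000). On the other autosomes the 218 members fell into 192 runs, of which 174 were single bins, and the longest were 4 bins at chr8:66100001-66180000, which overlaps YTHDC1, a reader of methylated adenosine in RNA, and at chr4:17180001-17260000, which overlaps no coding gene. The median WL-minus-NC value around the members outside chromosome 10 was -0.95 at the bin itself, -0.62 at 20 kb, -0.56 at 40 kb, -0.45 at 100 kb and -0.35 at 200 kb on either side. Around the members on chromosome 10 it was -1.08 at the bin and still -1.05 at 200 kb.

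The values that chose the bins ran from -2.31 to -0.89, with a median of -1.02 against -0.02 over all bins. The member just inside the limit (chr14:2440001-2460000, in AUH) and the bin just outside it (chr10:45840001-45860000) both had a value of -0.89, the first at -0.891309 and the second at -0.891171. The lowest bin, chr10:25060001-25080000, has no coding gene and 1 lncRNA, and the nearest coding start is 83.4 kb away. Its libraries ranged from -6.10 to 8.37 in NC GOM with a median of 8.01, and from -6.47 to 7.76 in WL GOM with a median of -1.37. These ranges overlap almost wholly. The lowest bin elsewhere, chr14:106260001-106280000 at -1.82, is 40.2% GC and 58.2% repeats, and CYP2C34, a cytochrome P450 gene, starts 5.17 kb away. Its median index went from -0.63 in NC to -2.99 in WL in GOM, from -0.52 to -2.71 in MAD and from -0.37 to -3.06 in RAD. In ULB the median was -0.29 in NC and -3.43 in WL. By its median it was on the B side in every group and AT, and lower still in WL. The eighth lowest bin, chr6:168540001-168560000 at -1.38, lies in SLC2A1, the glucose transporter of most resting cells, and ZNF691. Its median index was 1.501 in NC GOM, 0.46 in WG GOM and 0.24 in WL GOM, and in MAD it was 2.11, 0.81 and 0.76. The NC libraries of this bin ranged from -0.11 to 2.96 in GOM and the WL libraries from -0.89 to 0.68, so the groups overlapped.

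The ATs had the same sign in nearly all members. The WL mean lay below the NC mean in all 4 ATs for 467 of the 500 bins, in 3 for 32 and in 2 for 1, against all 4 in 22.5% of all bins. On the other autosomes it was all 4 for each of the 218. The rule averages the ATs and so favours bins in which they share a sign. The size of the shift was even among ATs outside chromosome 10, with medians of -0.85 in GOM, -0.98 in MAD, -0.95 in RAD and, for ULB, -1.09, and uneven on chromosome 10, with -2.46, -1.10, -0.39 and -0.45. GOM gave the lowest value in 281 of the 282 bins on chromosome 10 but in 28 of the 218 elsewhere, where MAD gave it in 46, RAD in 58 and ULB in 86. By limma (adjusted p below 0.05 and a difference below -0.75), 118 members were called lower in WL in GOM, where 1.13% of all bins were called, 172 in MAD (2.01%), 157 in RAD (4.25%) and, for ULB, 152 (4.21%). Since this contrast chose the bins, nothing is read from these counts. Of the called members, 9, 0, 2 and 1 were on chromosome 10.

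When bins were chosen in 3 ATs and read in the fourth, whose libraries had no part in the choice, the shift was smaller and had the same sign. The median WL-minus-NC difference in the AT left out was -0.57 for GOM, -0.91 for MAD, -0.39 in RAD and, for ULB, -0.46, with 483, 499, 452 and 450 of 500 bins below 0. Without chromosome 10 the medians were -0.56, -0.74, -0.61 and -0.65 and 473 to 499 of 500 bins were below 0. Over all bins the medians lay between -0.03 and -0.01. RAD depended on the normalization, since with the index as deposited its median was -0.13 with 325 of 500 bins below 0, where the median over all bins was 0.28. The ATs of a group may come from the same pigs, so a held-out AT is not an independent set of animals.

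**Figure D2:**
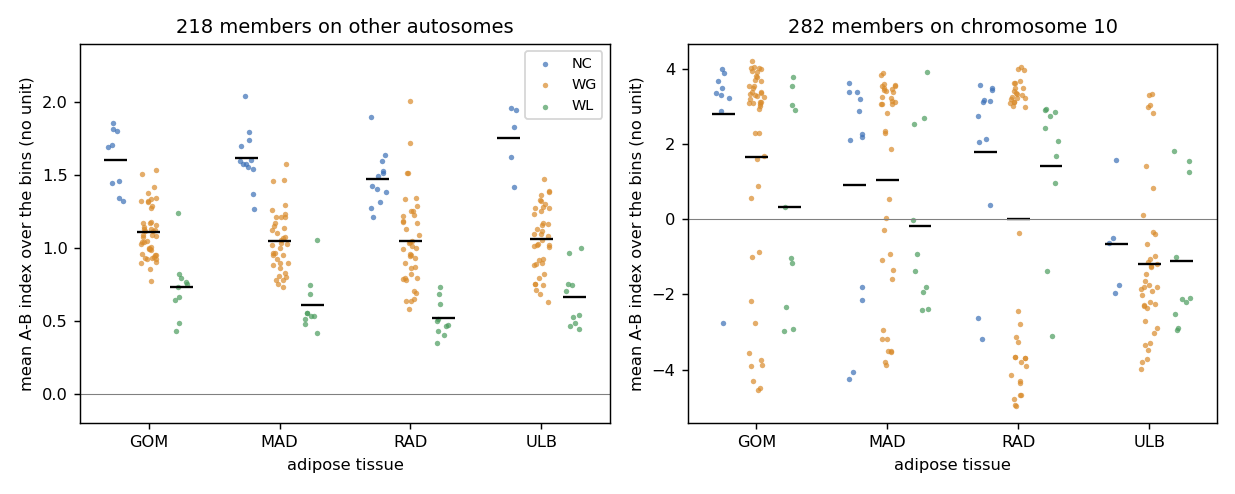
Mean A-B index (y axis, no unit) over the 218 members on other autosomes (left) and the 282 on chromosome 10 (right) in each Hi-C library, by AT (x axis) and group, with a black line at the group mean. On the left NC, WG and WL are ordered in every AT and NC and WL do not overlap; on the right the groups overlap widely, from -4.95 to 4.20 over all libraries.

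WG libraries sat between NC and WL on the other autosomes. The mean over the 218 bins was computed per library. In GOM it was 1.604 ± 0.212 (SD, n = 9) in NC, 1.11 ± 0.177 (n = 46) in WG and 0.733 ± 0.220 (n = 10) in WL. In MAD it was 1.61 ± 0.199 (n = 12), 1.05 ± 0.207 (n = 37) and 0.606 ± 0.184 (n = 10). In RAD it was 1.47 ± 0.184 (n = 12), 1.05 ± 0.306 (n = 40) and 0.516 ± 0.125 (n = 10). In ULB it was 1.75 ± 0.231 (n = 5), 1.06 ± 0.225 (n = 39) and 0.663 ± 0.203 (n = 10). The lowest NC and the highest WL library were 1.32 and 1.24 in GOM, 1.27 and 1.05 in MAD, 1.22 and 0.735 in RAD and 1.42 and 1.00 in ULB, so these groups, which chose the bins, did not overlap. WG libraries overlapped both neighbours, with a range of 0.775 to 1.54 in GOM and 0.581 to 2.01 in RAD.

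Bin by bin, the WG mean lay between the NC and WL means in 735 of 872 pairs of bin and AT on the other autosomes, above both in 47 and below both in 90. The median WG-minus-NC difference over these 218 bins was -0.45 for GOM, -0.51 for MAD, -0.47 in RAD and, for ULB, -0.69, and the median WL-minus-WG difference was -0.37, -0.46, -0.55 and -0.38. The step from NC to WG was the larger in GOM, MAD and ULB and the smaller in RAD. Because NC and WL chose the bins, the position of WG between them is a description. On chromosome 10 the order was not shared by the ATs. The WG mean lay between the others in 281 of 282 bins in GOM, above both in 226 in MAD, below both in all 282 in RAD and below both in 176 in ULB.

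**Figure D3:**
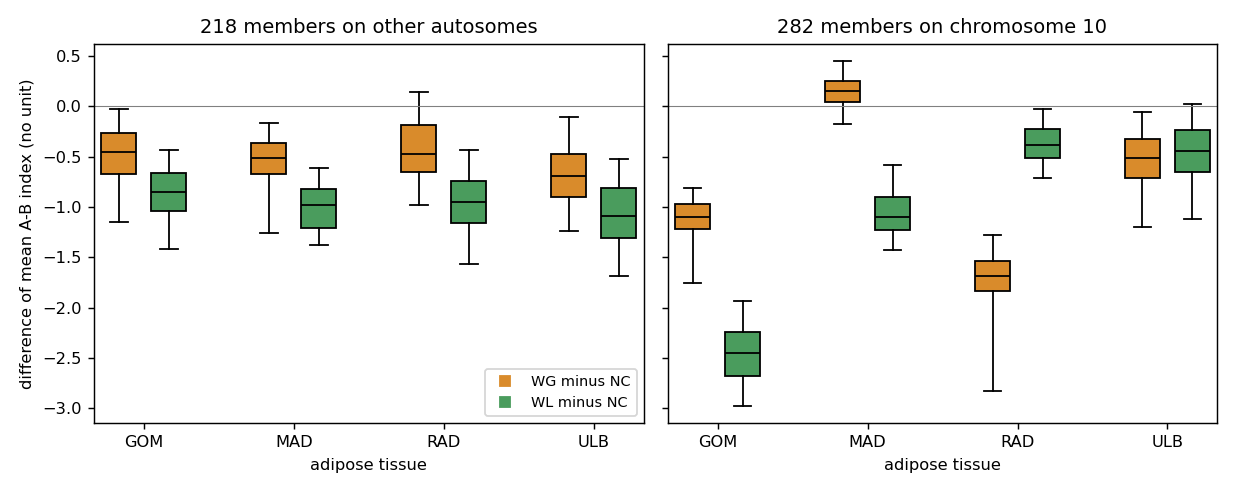
Difference of the mean A-B index (y axis, no unit) from NC in WG and in WL for the 218 members on other autosomes (left) and the 282 on chromosome 10 (right), by AT (x axis). Boxes span the quartiles over bins, the line is the median and whiskers reach the 5th and 95th percentiles. On the left both medians are negative in all ATs, with that of WL further below 0, and WG was below NC in 188 of the 218 bins in RAD. On the right the median of WG lies above NC in MAD and far below it in RAD.

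The shift was mostly a lower index on the same side of 0. On the other autosomes 153 of the 218 bins had a positive index in at least 70% of NC GOM libraries and 143 in at least 70% of WL GOM libraries, and the counts were 157 and 144 in MAD, 158 and 139 in RAD and 165 and 136 in ULB. Bins that were positive in at least 70% of NC libraries and in at most 30% of WL libraries numbered 4 in GOM, 2 in MAD, 8 in RAD and, for ULB, 18. The share of the 218 with a positive index per library went from 73.9% ± 1.49 (SD, n = 9) in NC GOM through 70.6% ± 1.82 (n = 46) in WG to 66.7% ± 1.92 (n = 10) in WL.

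In sequence the members were poor in GC, and outside chromosome 10 they were richer in genes than the genome. Their median GC was 37.2% (36.4% on chromosome 10, 38.4% elsewhere) against 40.6% over all bins, and repeats covered a median of 37.7% against 34.4%. The 500 bins that shifted most toward the active side had a median GC of 47.2%. A coding gene started in 58 of the 218 members on other autosomes (26.6%), against 13.6% of all bins there, but in 5 of the 282 on chromosome 10 (1.77%), against 10.1% of that chromosome. Some coding gene covered 70.6% of the former and 31.9% of the latter, against 56.5% of all bins. Gene richness was not particular to the members, because a coding gene started in 26.8% of the bins that shifted most toward the active side and some coding gene covered 68.2% of them. Of the members outside chromosome 10, 18 (8.26%) lay within 2 Mb of a chromosome end, where 3.10% of bins lie.

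RefSeq placed the start of 85 coding genes and 25 lncRNAs in the member bins, with 5 of the coding genes on chromosome 10. In all, 10 of the 85 (11.8%) formed divergent pairs that share a bidirectional promoter region of under 1000 bases, against 8.79% of all coding genes. These pairs are TEX14 with RAD51C (48 bases apart), TPR with C9H1orf27 (55), ZFAND5 with TMC1 (79), TBP with PSMB1 (152) and KBTBD3 with AASDHPPT (32). A pair of members on chromosome 13 held the starts of NPG4, PR39, NPG1 and PMAP-36, cathelicidin genes that encode antimicrobial peptides of granulocytes (chr13:30932411-30957127 for the first pair and chr13:30986030-30993023 for the second). These 4 were singled out after the list was seen. Neither they nor SLC2A1 were matched to the count table by symbol, so no expression is given for them. Of the 215 genes on 7 lists of adipose pathways (fat storage, lipolysis and oxidation, adipokine and insulin signalling, adipogenic and patterning factors, extracellular matrix, inflammation, neuronal genes), 192 could be placed and 1, TLR4 of the inflammation list, started in a member. None of the placed markers of adipocytes, macrophages, T and B cells, endothelium, mesothelium, smooth muscle, progenitors or erythroid cells did. Genes that overlapped a member without starting in it included PDE3B and IL15 of these lists.

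Promoters were compared for the 49 member genes matched to the count table, of which 3 are on chromosome 10. CCAAT, read on both strands, was present in 27 of the 49 windows (55.1%) and in 34.8% of the 13067 placed genes. GGGCGG was present in 28 (57.1%) against 58.3%, and TATAAA in 4 (8.16%) against 8.95%. The median window held 17 CG against 19 and 57.7% GC against 61.0%. None of the 4 promoters printed above contains CCAAT. A match is a description of these letters and not a binding site.

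H3K27ac marks active enhancers and promoters, and the authors' pooled tables list enhancer regions for NC and WL in each AT. Fewer members held such a region in WL than in NC in all 4 ATs. The number went from 134 to 99 of 500 in GOM, from 128 to 96 in MAD, from 107 to 89 in RAD and from 113 to 100 in ULB. The share of all bins with a region moved from 40.5% to 37.4% in GOM and from 37.7% to 35.01% in RAD, and from 35.5% to 39.8% in MAD and from 35.4% to 38.3% in ULB, so the members and the genome went opposite ways in MAD and ULB. On the other autosomes members with a region went from 111 to 88 of 218 in GOM (50.9% to 40.4%), from 114 to 90 in MAD, from 97 to 84 in RAD and from 105 to 91 in ULB. On chromosome 10 few members had one, 23 in NC and 11 in WL in GOM and 14 or fewer in each other table. Among all members, those with a region in the NC table alone numbered 45, 45, 40 and 34 (GOM, MAD, RAD, ULB) and those with a region in the WL table alone 10, 13, 22 and 21. Of the members with a region in NC, 66.4% kept one in WL in GOM, 64.8% in MAD, 62.6% in RAD and, for ULB, 69.9%, against 81.0%, 85.8%, 74.5% and 85.4% of all bins with one. Outside chromosome 10 the members kept one in 72.1%, 68.4%, 67.0% and 71.4%, against 81.0%, 85.6%, 74.4% and 85.3% of bins there.

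The covered length in the members went from 1401 to 1019 kb in GOM, from 1180.1 to 1076 kb in MAD and from 1085 to 966 kb in ULB, whereas RAD went from 983 to 1029 kb. The mean signal per member bin outside chromosome 10 was 994 in NC and 993 in WL in GOM, while over all such bins it went from 688 to 932. In MAD it was 675 and 1115 beside 410.4 and 985, in RAD 775 and 1097 beside 503 and 902, and in ULB 546 and 867 beside 342 and 861. A smaller number of covered bins therefore went with signal that was level in GOM and higher in the other ATs. Over all bins outside chromosome 10 the signal was higher in WL in every AT, GOM included. Each table pools 1 to 4 libraries (3, 1, 2 and 3 in NC and 4, 3, 4 and 2 in WL), so no replicate error can be given and depth and group cannot be told apart.

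**Figure D4:**
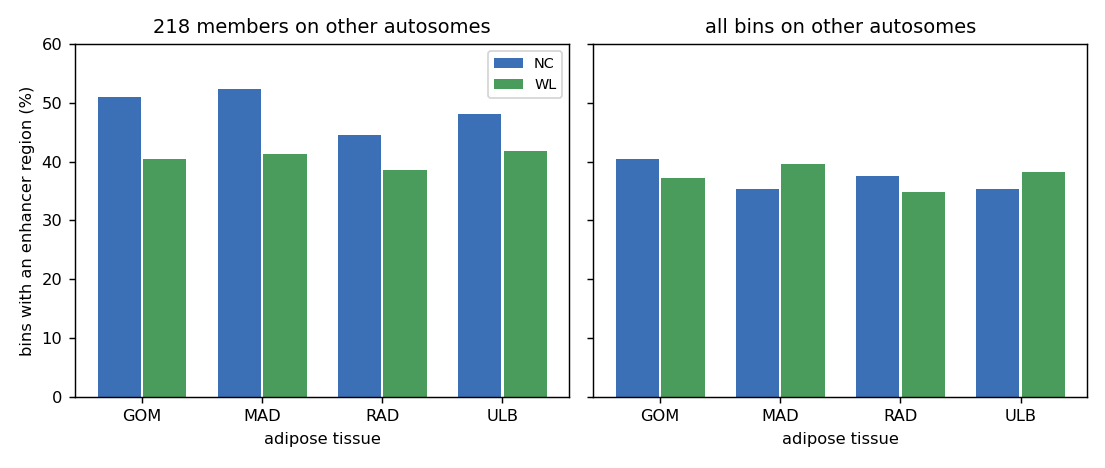
Share of bins with an enhancer region (y axis, %) in the NC and the WL table of each AT (x axis), for the 218 members on other autosomes (left) and all bins there (right). Bars are 1 pooled table each and carry no error. Member shares are lower in WL in all 4 ATs, from 50.9% to 40.4% in GOM, whereas the genome share is higher in WL in MAD and ULB.

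TAD boundaries were as frequent in the members as in the genome. A boundary lay in 8.81% ± 1.18 (SD, n = 240) of the members per library, against 8.83% of all bins, with group means of 8.68% for NC, 8.78% for WG and 9.02% for WL. The members on chromosome 10 and those elsewhere differed from their surroundings in opposite directions. On the other autosomes 10.7% of members held a boundary against 8.70% of bins, with the members higher in 212 of 240 libraries, and on chromosome 10 7.31% did against 12.9%.

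RNA levels were not used to choose the bins and could be tested. Library depth was 3337126 to 22939407 counts with a median of 16791614. Adipocyte markers summed to between 3754 and 32990 TPM, the length-normalized transcript abundance, over all groups and ATs, and macrophage markers to between 213 and 1898 TPM. These sums differed between groups. Median adipocyte sums in NC and WL were 7489 and 12808 TPM in GOM, 15306 and 15318 in MAD, 17868 and 22047 in RAD, and 14051 and 22097 in ULB. For macrophage markers they were 955 and 1083, 402 and 885, 521 and 740, and 631 and 890. The differences between these sums were not tested. The share of TPM that fell on protein-coding genes had a median of 93.5% over libraries but 79.0% in NC GOM and 87.5% in WL GOM. TPM ratios of WL to NC exceeded edgeR's fold changes by a median of 0.21 to 0.31 on the log2 scale, and the fold changes below are edgeR's. In bulk tissue fewer cells of a type and less RNA per cell cannot be told apart. Of the 49 member genes, 47 passed the expression filter in some AT and 46 in all 4. HSD17B3 and NKX1-1 did not, at a mean of 0.294 and 0 TPM in NC. A gene was called at adjusted p below 0.05 over all genes tested and a fold change above 1.5.

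The share of member genes called lower in WL was near or somewhat under that of all tested genes in each AT. The difference from all tested genes was not tested. In GOM 6 of 46 were called lower, where 20.7% of all tested genes were, and 3 higher, against 15.4%. In MAD 7 of 46 were lower, against 17.8%, and 3 higher, against 15.2%. In RAD 5 of 46 were lower, against 16.6%, and 2 higher, against 10.2%. In ULB 4 of 47 were lower, against 9.37%, and 1 higher, against 5.39%. Over the 4 ATs this made 22 lower (11.9%) and 9 higher (4.86%) of 185 tests, beside 16.2% and 11.6% of all tests. Without chromosome 10 it was 19 and 9 of 180. With the protein-coding share of TPM as a covariate 27 of the 31 calls still passed. The members had a median log2 fold change of 0.09 in GOM, -0.05 for MAD, 0.01 in RAD and, for ULB, -0.06, and 96 of the 185 were below 0. In all, 16 genes were called in some AT and 9 in 2 or more with 1 direction, of which 8 were lower (HNRNPH3, CD164, APBB1IP, YBX1, ARRDC3, TRPS1, ST3GAL3, TEX14) and 1 higher (PPP1R3D).

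HNRNPH3, which encodes an hnRNP protein of pre-mRNA splicing, differed most. It starts at chr14:71485925 in a bin with a value of -1.02. In GOM its level was 121 to 292 TPM in NC with a median of 233.5 and 18.6 to 110.2 TPM in WL with a median of 54.4, so the groups did not overlap. The log2 fold change was -2.33 ± 0.27 (SE, edgeR adjusted p = 4.21e-07). In MAD the range was 33.99 to 290.5 TPM (median 187) in NC and 20.0 to 98.4 (median 29.4) in WL, and the change was -2.29 ± 0.35 (adjusted p = 4.66e-05). In RAD it was 28.7 to 250.2 TPM (median 164) and 13.9 to 119.6 (median 62.6), a change of -1.65 ± 0.34 (adjusted p = 0.000577). The 5 NC ULB libraries had 41.1, 47.2, 134, 147 and 150.4 TPM and the WL libraries 14.7 to 94.4, and the change of -1.26 ± 0.38 (adjusted p = 0.028) did not pass without the NC library of replicate 5 (adjusted p = 0.0761), 9 (0.105) or 12 (0.0628). The ULB call also did not pass with a replicate block (-0.65, edgeR adjusted p = 0.229). In MAD, RAD and ULB the groups overlapped, with some NC libraries as low as WL.

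Its WG libraries fell into separate low and high ranges. Of 158, 72 were above 100 TPM and 5 between 80 and 120. WG libraries with the same replicate number mostly lay on the same side across ATs. Of 42 replicate numbers with 3 or 4 WG libraries, 17 were above 100 TPM in each AT, 22 at or below it in each and 3 mixed. In NC 30 of 38 libraries were above 100 TPM and in WL 2 of 40. The level of 100 TPM was set after the values were seen, and the labels do not say what a shared number stands for. What the number marks, and its part in the difference between WL and NC, was not tested. The chromosome 10 index did not follow the numbers to that degree, with 33 of 43 WG replicate numbers on differing sides of 0.

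CD164, a cell-surface sialomucin of adhesion and endolysosomes, was lower in WL in all 4 ATs. It starts at chr1:75458140 in a bin with a value of -1.01. In GOM it was 275 to 620.0 TPM in NC and 159.7 to 284.5 in WL, with medians of 341 and 215, a log2 fold change of -1.17 ± 0.14 (adjusted p = 7.77e-07). In MAD the medians were 477 (253 to 749) and 223 (167 to 291), a change of -1.27 ± 0.18 (adjusted p = 2.82e-05). In RAD they were 384 (258 to 699) and 258 (212 to 355), a change of -0.92 ± 0.14 (adjusted p = 4e-05). In ULB the 5 NC libraries had 427, 513, 585, 719.7 and 739.8 TPM, of which the lowest lay within the WL range of 278 to 449, and the change was -1.01 ± 0.14 (adjusted p = 0.000198). The NC and WL ranges overlapped at their edge in GOM, MAD and ULB and more widely in RAD. WG medians were 421 TPM in GOM, 432 in MAD, 421.5 in RAD and, for ULB, 705, above those of NC in all but MAD on the TPM scale. TPM ratios of WG to NC exceeded edgeR's fold changes by a median of 0.28 in GOM on the log2 scale. In MAD, RAD and ULB the excess was 0.20, 0.24 and 0.14. The order of these medians therefore need not hold in edgeR's fold changes. Over the WG libraries, 118 of 158 lay on the same side of the median of their AT for CD164 and HNRNPH3. It was 22 of 38 in NC and 22 of 40 in WL. These counts were chosen after the values were seen, and the part of this shared spread in the CD164 calls was not tested.

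APBB1IP (RIAM) encodes a Rap effector that carries talin to integrins in leukocytes and was the only gene called of the 2 tested on chromosome 10. It starts at chr10:49242864. Its level was 10.3 to 30.0 TPM in NC GOM and 2.82 to 15.5 in WL GOM, with medians of 23.5 and 4.52, a log2 fold change of -2.19 ± 0.27 (adjusted p = 9.16e-07). It was lower also in RAD, at -1.50 ± 0.36 (adjusted p = 0.00235), and ULB, at -1.27 ± 0.29 (adjusted p = 0.0064), where the NC libraries had 7.99, 8.68, 14.8, 17.4 and 22.1 TPM and the WL libraries 2.65 to 10.9. In MAD the value was -0.65 ± 0.33 (adjusted p = 0.107). With a replicate block the ULB call did not pass (-1.31, edgeR adjusted p = 0.0917). In GOM 3 of 9 macrophage markers were also called lower, where 20.7% of all tested genes were, and none higher. Their summed levels were 471 to 1898 TPM (median 955) in NC and 601 to 1445 (median 1083) in WL. In RAD 3 of 9 were higher, in MAD 5 of 9 were, and in ULB none was called. All 9 passed the filter in each AT. Of the T and B cell markers, 2 of 7 tested were called higher in GOM, 2 of 7 in ULB and 8 of 9 in MAD, with 0 lower. In RAD 1 of 6 was lower and 0 higher. The part of leukocyte content in the APBB1IP values was not tested. APBB1IP also shared the spread of HNRNPH3 over libraries. In WG 140 of 158 libraries lay on the same side of the median of their AT for both genes, and the 8 NC libraries with at most 100 TPM of HNRNPH3 were all at or below the NC median of their AT for APBB1IP. Over all NC libraries 24 of 38 lay on the same side, and in WL 20 of 40. These counts were chosen after the values were seen. The calls of these genes are not counted here as separate evidence of a difference, and the part of this shared spread in them was not tested.

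PPP1R3D, a subunit that targets protein phosphatase to glycogen, went the other way although its bin had a value of -1.10. It starts at chr17:59967143. In GOM it was 2.62 to 7.11 TPM in NC, 6.24 to 61.4 in WG and 10.7 to 19.2 in WL, and NC and WL did not overlap. The 61.4 TPM came from 1 WG library (replicate 35), and the next highest had 17.97. The log2 fold change was 1.32 ± 0.16 (adjusted p = 6.52e-07). It was 0.64 ± 0.18 in MAD (adjusted p = 0.00523) and 0.60 ± 0.20 in RAD (adjusted p = 0.0201), where NC libraries reached 14.9 and 13.005 TPM and overlapped WL. In ULB the value was 0.60 ± 0.28 (adjusted p = 0.134). PPP1R3D ran opposite to HNRNPH3 over the WG libraries. In WG 128 of 158 lay on opposite sides of the medians of their AT for the pair. In NC it was 18 of 38 and in WL 18 of 40. The 8 NC libraries with at most 100 TPM of HNRNPH3 were all above the NC median of their AT for PPP1R3D. The part of this opposite spread in the PPP1R3D calls was not tested.

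**Figure D5:**
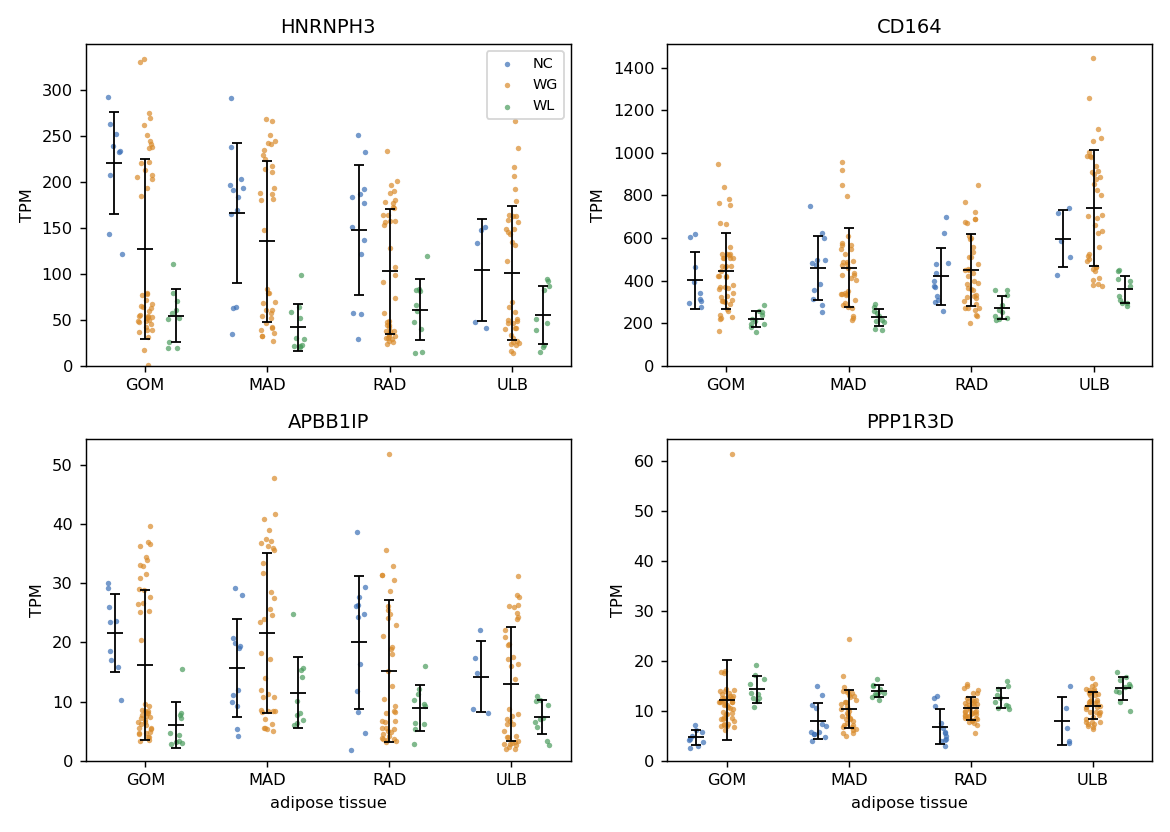
TPM (y axis) of HNRNPH3, CD164, APBB1IP and PPP1R3D in each RNA-seq library by AT (x axis) and group, with bars at the mean ± SD. HNRNPH3 falls into low and high ranges in WG, along which APBB1IP, PPP1R3D and, less closely, CD164 also spread. CD164 is lower in WL in all 4 ATs, and PPP1R3D is higher in WL in GOM with no overlap with NC.

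YBX1, a cold-shock-domain protein that binds RNA and DNA, was the most abundant member gene. It went from a median of 935 TPM (656 to 1340.3) in NC MAD to 576 (536 to 923) in WL MAD, a log2 fold change of -0.81 ± 0.14 (adjusted p = 0.000121), and by -0.70 ± 0.12 in RAD (adjusted p = 8.14e-05). In GOM (-0.46 ± 0.11, adjusted p = 0.00117) and ULB (-0.57 ± 0.15, adjusted p = 0.013) it passed the p but not the fold limit. ARRDC3, an arrestin-like protein that acts on beta-adrenergic receptors, was lower in GOM (-0.71 ± 0.21, adjusted p = 0.00775) and MAD (-0.66 ± 0.19, adjusted p = 0.00635), with medians of 233 and 188 TPM in GOM and 238 and 192 in MAD and wide overlap of the groups. These calls fell under the fold limit in GOM with a replicate block (-0.58) and in MAD with the covariate (-0.55). TRPS1, a GATA-type zinc-finger repressor, was lower in GOM (-0.91 ± 0.11, adjusted p = 9.61e-07), at 33.3 to 59.6 TPM in NC and 19.2 to 40.97 in WL, and in MAD (-0.68 ± 0.17, adjusted p = 0.0029). Its MAD call fell under the fold limit with a replicate block (-0.58).

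ST3GAL3, a sialyltransferase, was lower in MAD (-0.65 ± 0.15, adjusted p = 0.00142) and in ULB (-0.62 ± 0.19, adjusted p = 0.0326). The ULB call did not pass without the NC library of replicate 7 (adjusted p = 0.0753) or 9 (0.107), or with a replicate block (edgeR adjusted p = 0.0852). Without the expression filter it fell under the fold limit (-0.58). TEX14, known from the bridges between germ cells, reached at most 3.86 TPM and was lower in MAD (-0.70 ± 0.26, adjusted p = 0.0297) and RAD (-0.63 ± 0.25, adjusted p = 0.0487). With the protein-coding share of TPM as a covariate neither TEX14 call passed (adjusted p = 0.0948 and 0.0512). TEX14 in RAD also did not pass without the expression filter (-0.57, edgeR adjusted p = 0.0933). Its divergent partner RAD51C, of homologous recombination repair, had values of 0.04 to 0.10 in the 4 ATs, none called.

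Several abundant or low-index genes were called in 1 AT or none. PSMB1, a proteasome core subunit, was higher in GOM (1.07 ± 0.11, adjusted p = 1.22e-07), at 86.6 to 119.6 TPM in NC and 193 to 316 in WL, and was not called in the other ATs (0.13 to 0.24). TLR4, the receptor for bacterial lipopolysaccharide and the only member on the pathway lists, was higher in MAD (0.67 ± 0.18, adjusted p = 0.00444), at 13.4 to 38.7 TPM in NC and 28.6 to 64.4 in WL. In that AT 21 of 32 inflammation genes, 5 of 9 macrophage markers and 8 of 9 T and B cell markers were also called higher, with macrophage markers summing to 248 to 649.7 TPM in NC and 481 to 1356 in WL, and the part of immune cell content in it was not tested. ZNF692, a zinc-finger gene, was higher in ULB (0.94 ± 0.23, adjusted p = 0.0102), with 2.60, 2.95, 3.19, 5.04 and 5.65 TPM in NC and 6.89 to 11.4 in WL, which do not overlap. This call did not pass with a replicate block (0.90, edgeR adjusted p = 0.204). CKS2 (a cyclin-dependent kinase partner) and SECISBP2 (needed to insert selenocysteine) share the member bin with the lowest value that holds a gene start outside the uncharacterized loci, -1.27. Neither was called in any AT, at -0.01 to 0.63 and -0.20 to 0.34. TPR, of the nuclear pore basket, and GPBP1L1 were not called either, at -0.32 to 0.17 and -0.13 to 0.01. Other single calls included ZNF567 (-0.64) in GOM, MMS22L (0.86) in MAD and TTC23 (0.71) in RAD. ZNF567 fell under the fold limit without the filter (-0.54) and with a replicate block (-0.55), and MMS22L did not pass with the covariate (0.64, edgeR adjusted p = 0.168) or with the block (0.58, adjusted p = 0.197).

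After weight gain alone few member genes were called. This comparison shares its NC libraries with the one above, and its values are set beside those. In WG against NC, 3 were lower and 4 higher of 46 in GOM, where 14.5% and 12.2% of all tested genes were. None was called in either direction in MAD (5.29% and 5.38%) by edgeR or by DESeq2, with 10 of 46 at an unadjusted p below 0.05 by edgeR and 12 by DESeq2. In RAD 1 was lower (9.6%) and 0 higher (7.1%), and in ULB 1 lower (1.87%) and 0 higher (0.507%). In GOM PSMB1 (1.07 ± 0.28, adjusted p = 0.00247) and PPP1R3D (1.15 ± 0.27, adjusted p = 0.000808) were higher in WG, and their WL-against-NC values were 1.07 and 1.32. HNRNPH3 was at -1.12 ± 0.36 in GOM (adjusted p = 0.0123) and -0.80 ± 0.30 in RAD (adjusted p = 0.0348), and its WL-against-NC values there were -2.33 and -1.65.

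From WG to WL the calls past the fold limit were nearly all lower, but without that limit 22 were lower and 16 higher. In GOM 4 were lower (2.71% of all tested genes) and 0 higher (2.55%), in MAD 5 (9.17%) and 0 (8.26%), in RAD 2 (4.13%) and 0 (2.24%), and in ULB 2 (4.9%) and 1 (3.22%). Over the 4 ATs this made 13 lower of 184 tests (7.07%, beside 5.24% of all tests) and 1 higher (0.543% beside 4.08%). Of the 184 fold changes 88 were below 0 (47.8%), beside 52.8% of all tests. CD164 was lower in all 4 ATs, at -1.06 ± 0.19, -1.07 ± 0.20, -0.79 ± 0.18 and -1.16 ± 0.17 in GOM, MAD, RAD and ULB. So was SYCP2, a synaptonemal complex gene expressed at a mean of 3.33 TPM in NC, at -0.92 ± 0.23, -0.94 ± 0.24, -0.73 ± 0.23 and -0.61 ± 0.20. SYCP2 falls outside the rule for named genes and was named after its values were seen. Its WL-against-NC values were below 0 in the 4 ATs but not called. The 1 higher call was KBTBD3 in ULB (0.60).

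Genes that run through a member bin without starting in it were called lower at about the genome's rate and seldom higher. There were 76 tested, 5 of them on chromosome 10, and in WL against NC 56 of 303 tests were lower (18.5%) and 6 higher (1.98%), beside 16.2% and 11.6% of all tests. They are long genes, with a median of 88.0 kb against 28.3 kb. PDE3B, the phosphodiesterase through which insulin restrains lipolysis, was lower in all 4 ATs. Its member bin, chr2:44580001-44600000, lies inside the gene 14.1 kb from its start. Its median level was 60.4 TPM (38.7 to 73.9) in NC GOM and 45.8 (28.3 to 67.5) in WL GOM, and in MAD 83.4 (31.1 to 160.3) and 40.3 (34.1 to 77.2), so the groups overlapped. The log2 fold changes were -0.69 ± 0.13, -1.02 ± 0.19, -0.62 ± 0.14 and -0.75 ± 0.17 in GOM, MAD, RAD and ULB (adjusted p = 0.000188, 0.000221, 0.00121 and 0.00661). Of the other genes lower in all 4 ATs, 3 are named after their values were seen. AHNAK, a giant scaffold protein, changed by -1.92 ± 0.18 in GOM and -0.89 to -1.13 elsewhere. MAP1LC3B, which coats autophagosomes, changed by -1.13 ± 0.20 in GOM and -0.80 to -1.02 elsewhere. MNT, a MAX-binding repressor, changed by -0.91 to -1.20. MGAT1, which starts complex N-glycans, was higher in GOM (1.02 ± 0.09), MAD (0.66 ± 0.17) and RAD (0.72 ± 0.15), and RNF220, a ubiquitin ligase, in GOM (0.88 ± 0.09) and MAD (0.61 ± 0.11). The cytokine gene IL15 was not called, at 0.37 to 0.60.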

How the data were processed

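In situ Hi-C and strand-specific RNA-seq were analysed in the 3 groups and 4 ATs, with the group of each library taken from its labels. The A-B index table is a score that the authors computed per 20-kb bin from the Hi-C contact maps on Sscrofa11.1, 1 column per library, and 9 of its 249 columns, like 9 in the count table, matched no sample used here. The authors' TAD calls and enhancer tables gave positions in bases. The enhancer signal was deposited as ROSE gives it, on H3K27ac peaks called with SICER after BWA mapping, with the libraries of a group pooled. The authors made the estimated counts and the TPM values with kallisto and tximport over coding and noncoding gene models.

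The index was quantile normalized between libraries and the bins were ranked as described. Index differences over all bins were fitted with limma 3.58.1 (adjusted p below 0.05 and a difference beyond 0.75). Estimated counts were rounded and tested with the quasi-likelihood test of edgeR 4.0.16 with TMM factors, each pair of groups within an AT, over the 13548 to 14440 genes at or above 0.5 TPM in 80% of the samples of a group, with Benjamini-Hochberg adjustment over all genes tested and a fold limit of 1.5. Differences are on the log2 scale with standard errors. R 4.3.3 and Python 3.11.15 were used. In simulated counts for WL against NC in GOM (14440 genes, 200 changed), recovery was counted at adjusted p below 0.05 without the fold limit. It was 25.4% of genes changed 1.5-fold, 59.7% of those changed 2-fold and 92.4% of those changed 4-fold.

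RefSeq symbols placed 13067 of the 21280 coding genes of the count table (61.4%) in an autosomal bin by their start, and promoter sequences and coordinates are RefSeq's for Sscrofa11.1. Genes were named if called in 2 or more ATs in 1 direction in WL against NC, if they were among the 8 tested starts with the lowest rule value, if they stood on a pathway list, or if they were among the 5 most abundant in NC. The members, lists and rules were chosen with earlier results of these data known. Bins that exclude chromosome 10 were added as an alternative after the data were seen. Groups share replicate numbers, but over 12 comparisons with 4 to 11 shared numbers none had every same-numbered pair correlated above 0.1 (median r -0.214 to 0.0987), so the main test has no block. The other alternatives were DESeq2 1.42.0, RLE factors, no expression filter, no fold limit, the protein-coding share of TPM as a covariate, genes that overlap a bin, the index as deposited, the median of the ATs, the visceral ATs alone and leaving out libraries. The enhancer tables of WG cover subgroups and were not used here. Some genes are not reported here.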

Additional observations from a re-analysis of the deposited data

Results flagged for a closer look

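In 13 of 120 groups of 4 to 10 libraries, 1 library stood far from the others by Dixon's criterion, where chance gives about 1 in 20. Among index values, 1 NC GOM library had a mean of -2.75 over the chromosome 10 members against a median of 3.36. Over the members on other autosomes 1 WL GOM library had 1.24 (median 0.745) and 1 WL MAD library 1.05 (median 0.542), the highest of their groups and still below all NC libraries of those ATs. The other 10 were TPM values. APBB1IP reached 15.5 TPM in 1 WL GOM library (median 4.52) and 24.7 in 1 WL MAD library (median 9.13). ST3GAL3 reached 23.1 TPM in NC GOM (median 12.8) and 28.5 in WL RAD (median 15.9). TRPS1 reached 43.2 TPM in WL MAD (median 24.9) and RAD51C 21.8 in WL GOM (median 13.1). In ULB, ARRDC3 reached 407 TPM in WL (median 185), CKS2 74.8 in WL (median 30.9) and TPR 102.2 in NC (median 79.8), and TLR4 was as low as 24.7 TPM in WL (median 52.6).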

How the results depend on the processing

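No result changed direction. The membership depended on the normalization and on how the ATs were averaged: 274 of the 500 bins were also among the 500 lowest with the index as deposited and 299 with the median of the ATs, against 380 with the visceral ATs alone and 422 to 461 when 1 library was left out, while the median shift of the 500 stayed between -0.75 and -1.14. In the held-out reading, the RAD median was -0.13 as deposited and -0.61 without chromosome 10. TAD boundaries lay within 1 bin of a median of 18.2% of members, against 17.8% of all bins, and within the bin itself of 10.7% (mean) of members outside chromosome 10, against 8.70% of all bins there.

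For WL against NC, 37 lower and 23 higher calls passed without the fold limit, and 78 and 15 among all genes that overlap a member. For WG against NC, lower calls numbered 8 without the filter, 8 with the covariate, 19 without the fold limit and 19 among overlapping genes, and higher calls 9 and 7 in the last 2 of these. For WL against WG there were 22 lower calls without the fold limit and 39 among overlapping genes, and higher calls numbered 3 without the filter, 0 with the covariate, 16 without the fold limit and 2 among overlapping genes. With a replicate block, fitted on the shared numbers only, calls were 17 lower and 10 higher for WL against NC, 0 and 1 for WG against NC, and 9 and 2 for WL against WG. These fits use fewer samples. Of the 31 single calls for WL against NC, 8 did not pass with the block, 4 with the covariate, 3 without the filter, 1 by DESeq2 and 0 with RLE factors. The causes of these changes were not tested. The index table carries no read depth, so the counting error of an index value is unknown, and ULB rests on 5 NC libraries.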

Other observations

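Fat storage genes were called lower more often than higher in WL in the same RNA-seq libraries, although none of the 18 placed genes of that list of 23 started in a member bin. In WL against NC, 13 of 19 tested were lower and 0 higher in MAD, 8 and 1 in RAD, 6 and 5 in GOM, and 6 and 2 in ULB. Of all tested genes 17.8% were lower and 15.2% higher in MAD, 16.6% and 10.2% in RAD, 20.7% and 15.4% in GOM, and 9.37% and 5.39% in ULB. The summed level of the fat storage genes did not follow the calls in every AT. In GOM the median sum was 7386 TPM in NC and 12180.1 TPM in WL, and in MAD it was 17996 and 14572. The difference between these genes and the member genes was not tested.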
